A study of Mus musculus with 6 samples.

Results

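Chromatin accessibility at the genes that write, maintain and remove DNA methylation was described in peripheral white blood cells of mice. The group comprised the methyltransferase genes Dnmt1, Dnmt3a and Dnmt3b, the maintenance factor gene Uhrf1, and the dioxygenase genes Tet1, Tet2 and Tet3, which were 7 of 77949 gene symbols in the annotation. They are defined by name and function, and no threshold on a measured value was used. A peak belonged to a gene when its summit lay in the gene body or within 3000 bp of an annotated transcription start of the gene. By this rule the genes held 34 of 62876 consensus regions, a consensus region being the union of overlapping peaks over the 6 libraries. Of the 34, 16 had a peak in every library and are called shared regions, and 18 lacked a peak in at least 1 library.

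Open DNA was mapped by ATAC-seq, an assay that lets a transposase (Tn5) cut and tag accessible sites, in about 50000 white blood cells per library once red cells had been lysed. The labels give a control group of 3 libraries and a group of 3 libraries in high-altitude de-acclimatization (HADA), which is the phase following return from high altitude to normal oxygen. The study's methods describe male C57BL/6j mice bought at 8 weeks of age. HADA mice had spent 28 days in a hypobaric chamber set to 6000 m and were then returned to normal oxygen, while control mice stayed in normal oxygen throughout. The labels and methods name leukocytes, whereas the study's results text speaks of mononuclear cells, a preparation that would hold few neutrophils. The labels do not give the time after return for these libraries. The cells were not sorted, so that each value is an average over a mixture of cell types, and a change in the share of a cell type cannot be told apart from a change within cells. The labels do not say whether each library came from a separate mouse, so p-values measure the spread between these samples, which may be technical.

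DNA methylation is laid down on cytosines of CpG sites by the de novo enzymes DNMT3A and DNMT3B. It is copied after DNA replication by DNMT1, which UHRF1 guides to the newly made strand. The TET enzymes oxidise methylated cytosine, a step towards its removal, and they need molecular oxygen, iron and 2-oxoglutarate. DNMT3A and TET2 are best known in blood because their loss expands stem cell clones.

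Peak height was measured as a pileup and as a level, both solved from the deposited fold enrichment and p-value. The summit pileup is the number of sequenced fragments or reads over the summit. The level over background divides it by the genome-wide background of its library, 1.69 to 2.05 for control libraries and 1.99 to 2.34 for HADA libraries. For tests between groups, the log2 pileup was centred on the median of the 23970 shared regions of its library. Libraries held 34045 to 41475 peaks in control and 44044 to 45799 in HADA, and a peak at background needed a pileup of 7 to 8 in control and 8 to 9 in HADA to be called. Control replicate 3 stood apart, with the fewest peaks and the lowest B cell marker level, and values without it are given where it moved a result by much.

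The sequences of several regions are given first because the regions differ widely in the CpG sites on which these enzymes act. All were read from the GRCm39 genome, from parts of the region that no annotated exon covers, and run 5′ to 3′ on the strand of the gene. In the first group the capitals mark CpG sites. The stretch at the Dnmt3a start (chr12:3856603-3856902, + strand) held 47 CpG sites in 300 bases, and that at the Tet3 start (chr6:83433589-83433888, − strand) held 36. The stretch at the Tet1 start (chr10:62701174-62701473, − strand) held 12. The stretch in intron 5 of Tet3 (chr6:83358806-83359105, − strand), in the only shared region of the 7 genes that fell in HADA, held 4.
Dnmt3a start: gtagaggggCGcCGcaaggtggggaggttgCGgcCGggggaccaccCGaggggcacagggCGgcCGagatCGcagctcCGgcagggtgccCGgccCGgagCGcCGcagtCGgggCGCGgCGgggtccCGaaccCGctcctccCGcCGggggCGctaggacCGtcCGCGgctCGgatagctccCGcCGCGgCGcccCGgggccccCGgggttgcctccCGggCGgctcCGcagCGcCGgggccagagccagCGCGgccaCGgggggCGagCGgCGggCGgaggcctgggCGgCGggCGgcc
Tet3 start: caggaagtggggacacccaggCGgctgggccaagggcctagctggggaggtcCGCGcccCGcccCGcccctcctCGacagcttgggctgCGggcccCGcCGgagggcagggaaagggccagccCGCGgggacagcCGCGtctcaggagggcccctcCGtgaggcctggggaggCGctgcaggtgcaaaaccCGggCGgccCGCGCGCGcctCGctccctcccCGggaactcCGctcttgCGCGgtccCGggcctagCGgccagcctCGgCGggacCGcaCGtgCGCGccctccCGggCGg
Tet1 start: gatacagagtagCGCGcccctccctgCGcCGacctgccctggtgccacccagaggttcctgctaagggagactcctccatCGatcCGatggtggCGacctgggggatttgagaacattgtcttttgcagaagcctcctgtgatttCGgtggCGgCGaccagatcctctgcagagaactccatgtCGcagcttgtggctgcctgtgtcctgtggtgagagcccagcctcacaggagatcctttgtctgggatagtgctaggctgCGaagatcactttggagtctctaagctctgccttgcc
Tet3 intron 5: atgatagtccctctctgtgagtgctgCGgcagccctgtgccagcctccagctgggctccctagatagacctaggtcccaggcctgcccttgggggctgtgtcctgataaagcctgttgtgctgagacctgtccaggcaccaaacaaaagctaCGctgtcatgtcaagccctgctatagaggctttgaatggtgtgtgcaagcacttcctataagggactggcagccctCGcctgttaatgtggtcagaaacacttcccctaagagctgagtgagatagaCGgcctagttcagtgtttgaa

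Across all consensus regions, the median 300-base window around the summit held 4 CpG sites. The median was 20 for shared regions within 3000 bp of a start and 3 for shared regions farther away. The printed Dnmt3a stretch leaves out the summit, and the window around that summit held 35 CpG sites. The ratio of observed to expected CpG sites was 0.80 in that window and 0.78 in the Tet3 start stretch, which holds its summit, against a median of 0.72 in shared start regions. It was 0.47 in the Tet1 start stretch, between the medians of start regions and of distant regions (0.21). Dnmt3a and Tet3 thus start in CpG-dense sequence, and the open Tet1 start lies in sequence with fewer CpG sites.

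The second group shows regions outside the start regions, with capitals marking the letters TGTGGTT, which RUNX factors bind. The stretch in intron 3 of Uhrf1 (chr17:56616656-56616955, + strand) comes from a region with a peak in HADA only. The stretch in intron 3 of Dnmt3a (chr12:3905851-3906150, + strand) comes from a shared region that rose in HADA. The stretch in intron 3 of Tet3 (chr6:83413447-83413746, − strand) also had a peak in HADA only and held none of the motifs searched.
Uhrf1 intron 3: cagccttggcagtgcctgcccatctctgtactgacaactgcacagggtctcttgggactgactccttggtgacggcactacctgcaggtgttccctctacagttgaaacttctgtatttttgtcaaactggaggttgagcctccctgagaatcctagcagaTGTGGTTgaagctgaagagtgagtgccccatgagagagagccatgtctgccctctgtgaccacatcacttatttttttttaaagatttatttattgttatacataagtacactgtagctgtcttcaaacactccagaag
Dnmt3a intron 3: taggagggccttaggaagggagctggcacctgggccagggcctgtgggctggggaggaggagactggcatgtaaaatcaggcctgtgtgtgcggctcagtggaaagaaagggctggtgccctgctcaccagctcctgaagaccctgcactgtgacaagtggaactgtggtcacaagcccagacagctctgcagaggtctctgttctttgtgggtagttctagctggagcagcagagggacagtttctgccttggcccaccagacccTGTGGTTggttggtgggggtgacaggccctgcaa
Tet3 intron 3: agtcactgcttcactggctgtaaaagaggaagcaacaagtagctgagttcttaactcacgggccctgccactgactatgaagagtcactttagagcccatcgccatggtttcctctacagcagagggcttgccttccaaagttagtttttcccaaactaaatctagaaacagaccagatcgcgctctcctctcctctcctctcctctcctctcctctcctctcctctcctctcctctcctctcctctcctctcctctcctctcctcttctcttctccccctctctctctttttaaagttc

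The Tet3 intron 3 stretch held 16 copies in a row of a 5-base unit, CTCTC. Short repeats can collect reads that align to several places, and its part in the peak was not tested. The letters TGTGGTT or their reverse complement were in 10.2% of all 300-base windows, and in those of 4 of the 34 regions. These 4 included regions that did not rise. In the Tet1 region at chr10:62733595-62735416 the groups overlapped. The Dnmt3a region at chr12:3890755-3892676 had a peak in 2 control and 2 HADA libraries. The motifs searched, on both strands, were ETS (CCGGAAG), PU.1 (GAGGAAGT), RUNX (TGTGGTT), EBF (CCCNNGGGA), CTCF (AGGGGGC), TCF7 (CTTTGAT), CEBP (TTGCNNAA), GATA factors (AGATAA), AP-1 (TGANTCA), E2F (TTCCCGCC), NRF1 (GCGCATGC), SP1 (GGGGCGG), YY1 (AAGATGGC), NF-Y (CCAAT) and HIF (ACGTG). Over all windows the share with a match ran from 1.19% for E2F to 32.9% for NF-Y, and no other motif of the list overlapped the RUNX letters in these stretches. The Tet3 start stretch also held the SP1 letters, found in 31.3% of windows of shared start regions, and the HIF letters, found in 24.4% of them. A match describes the letters in the window and not a bound factor.

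At the 7 genes, 8 of the 16 shared regions rose in HADA and 1 fell, by limma on the centred log2 pileup with Benjamini-Hochberg adjustment over all shared regions. Over all 23970 shared regions, 17.9% rose and 24.1% fell. Of the 16 regions, 13 had a summit within 3000 bp of a start, of which 7 rose and 0 fell, beside 20.1% risen and 12.2% fallen of the 14970 shared regions so placed. Of the 3 farther away, 1 rose and 1 fell, beside 14.2% and 43.8% of 9000. The count of 8 depended on the libraries and the measure. It was 1 without HADA replicate 2, 2 without HADA replicate 3, 3 without HADA replicate 1 and 4 without control replicate 3, and it was 1 on ranks of the deposited fold enrichment and 13 without centring. The median log2 difference of HADA minus control was 0.61 over the 16 regions and −0.04 over all shared regions. It was 0.58 over the 13 regions near a start, against 0.09 over all shared regions near a start. Of the 16, 12 had every HADA library at a higher centred level than any control library and 2 had every one at a lower level, where 29.4% of all shared regions lay above and 31.2% below. A region with a peak in 3 of 3 HADA and 0 of 3 control libraries was found 4 times at these genes, against 7.01% of all consensus regions, and the opposite was found 0 times, against 1.88%. When every library was cut to an equal number of its strongest peaks, the count was 1.

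**Figure D1:**
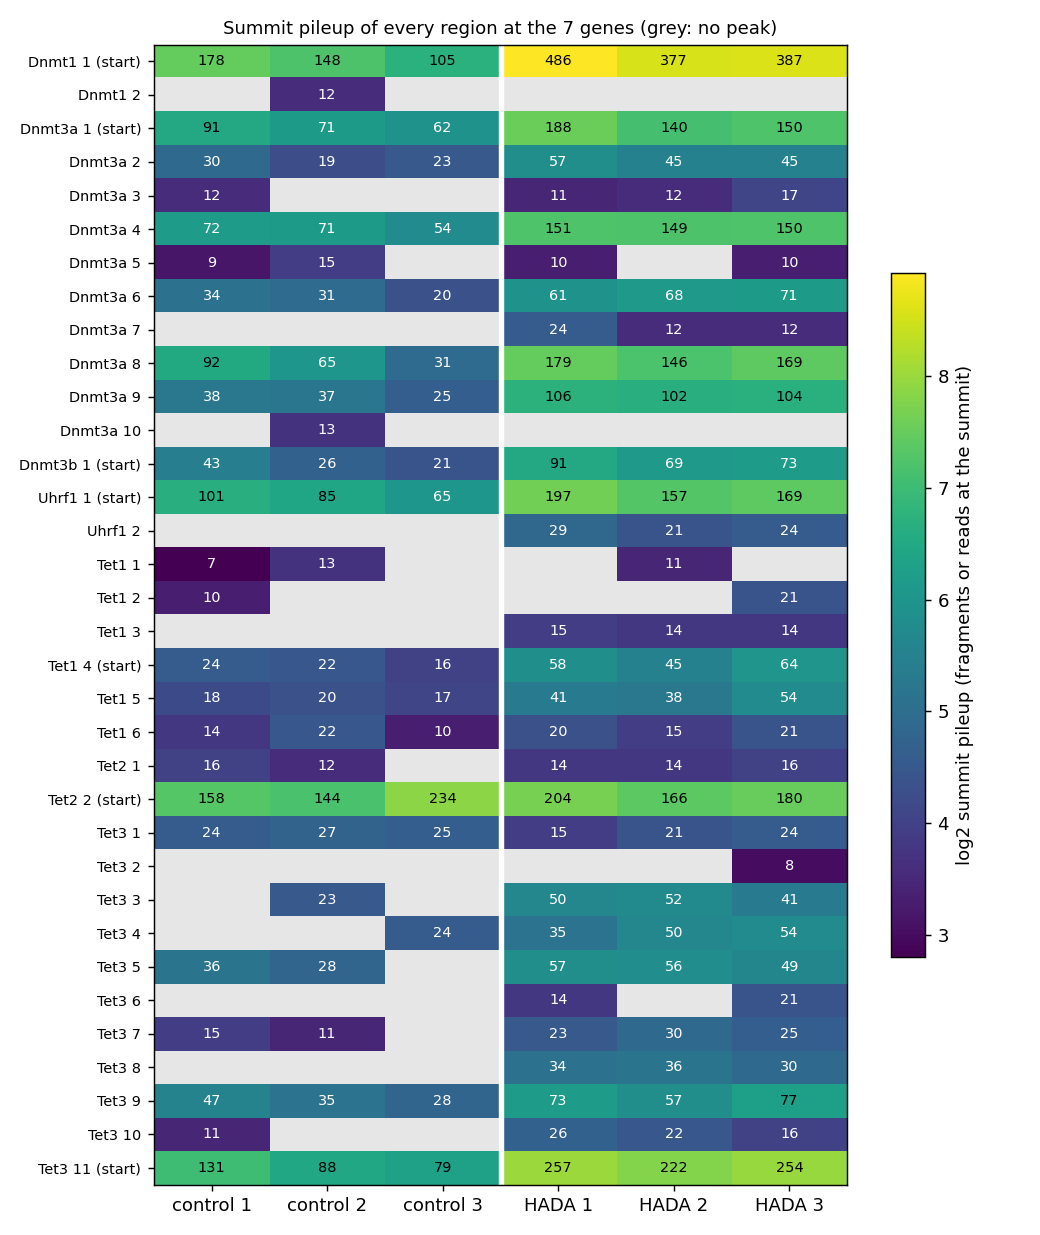
Summit pileup in each library (columns) of all 34 regions at the 7 genes (rows, numbered along each gene by coordinate), with the number printed in each cell, the log2 pileup as colour and grey where the library had no peak. The highest value is 486 at the Dnmt1 start in HADA replicate 1, and grey cells are most frequent in control replicate 3.

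The Dnmt1 start region had the highest level in HADA of the 7 start regions. Dnmt1 (ENSMUSG00000004099.18, chr9:20817945-20871184, − strand) had its shared region at chr9:20863509-20864490, with the summit in exon 1, 210 bp downstream of the start of the canonical transcript. Its summit pileup was 178, 148 and 105 in control replicates 1 to 3 and 486, 377 and 387 in HADA replicates 1 to 3. Every HADA library was above every control library, and the lowest HADA pileup was above the highest control pileup. The level over background was 78.3 ± 24.6 (SD, n = 3) in control and 189 ± 18.7 (SD, n = 3) in HADA. The centred log2 difference was 0.93 (SE 0.19, 95% interval 0.50 to 1.37, limma adjusted p = 0.0113), or 1.91-fold. Leaving out each library in turn, it ran from 0.74 to 1.06, with adjusted p up to 0.0502, reached without HADA replicate 2. On ranks of the deposited fold enrichment, the adjusted p in limma was 0.0538. A second Dnmt1 region, at chr9:20872585-20873588 and upstream of the gene, had a peak in control replicate 2 alone, with a pileup of 12.

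Among start regions of protein-coding genes, that of Dnmt1 ranked high. Its mean centred level was above 69.4% of 11882 others in control and above 91.4% in HADA. Its difference was above that of 94.1% of them. The Dnmt3a start stayed near the middle, above 43.5% in control and 52.6% in HADA.

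Dnmt3a (ENSMUSG00000020661.18, chr12:3856007-3964443, + strand) had 10 regions, 6 of them shared, and in all 6 the centred HADA levels lay above the control levels. Of the 6, 3 passed the test and none fell. The region with the largest difference was at chr12:3940840-3942830 in intron 6, 167 bp from the start of a shorter transcript. Its pileup was 38, 37 and 25 in control and 106, 102 and 104 in HADA. HADA libraries were close together and far above control libraries. The difference was 1.04 (SE 0.18, 95% interval 0.63 to 1.46, limma adjusted p = 0.0094), and it kept adjusted p under 0.05 when any 1 library was left out, which no other region of the 7 genes did. On ranks of the deposited fold enrichment, the call was lost (limma adjusted p = 0.138).

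The other Dnmt3a regions that rose were in introns 1 and 3. In intron 1, at chr12:3884104-3885222 and 13 bp from a start of another transcript, the pileup was 72, 71 and 54 in control and 151, 149 and 150 in HADA. This gave a difference of 0.58 (SE 0.16, limma adjusted p = 0.0269). In intron 3, at chr12:3905721-3906649, the region whose sequence with the RUNX letters is printed above, the pileup was 34, 31 and 20 in control and 61, 68 and 71 in HADA. The difference was 0.64 (SE 0.21, limma adjusted p = 0.0430). Both regions had higher pileups in each HADA library than in any control library, and both lost the call when any 1 HADA library was left out and on ranks. Without control replicate 3 the differences were 0.46 (limma adjusted p = 0.0469) in intron 1 and 0.43 (limma adjusted p = 0.0970) in intron 3. The intron 3 region also lost the call without control replicate 2.

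The Dnmt3a start region itself, at chr12:3856063-3857000 and 367 bp upstream of the canonical start, missed the threshold. A start of the predicted gene Gm60243 lies within 3000 bp of it. Its pileup was 91, 71 and 62 in control and 188, 140 and 150 in HADA, and the groups did not overlap. The difference was 0.47 (SE 0.17, 95% interval 0.08 to 0.87, limma adjusted p = 0.0536), and 0.37 without control replicate 3. The region in intron 4, at chr12:3920899-3921752, had a larger difference of 0.90 with a larger error (SE 0.32, limma adjusted p = 0.0517). Its pileup was 92, 65 and 31 in control and 179, 146 and 169 in HADA, so that control replicate 3 lay well below the other control libraries. Its difference was 0.48 without control replicate 3 (limma adjusted p = 0.0740) and 1.20 without control replicate 1 (limma adjusted p = 0.0178). The remaining shared region, at chr12:3857788-3858576 in intron 1, had pileups of 30, 19 and 23 in control and 57, 45 and 45 in HADA and a difference of 0.42 (SE 0.20, limma adjusted p = 0.117), which was 0.25 without control replicate 2 (limma adjusted p = 0.257).

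Of the Dnmt3a regions that were not shared, 1 had a peak in HADA only. It lay at chr12:3911542-3912438, where the antisense gene Dnmt3aos is also annotated, and its pileup was 24, 12 and 12 in HADA replicates 1 to 3. Replicates 2 and 3 were close to the pileup of 8 to 9 that a call at background needed, and replicate 1 was well above it. The other 3, at chr12:3873257-3873974, chr12:3890755-3892676 and chr12:3954667-3955271, were weak, with pileups of 9 to 17. The first had a peak in 3 HADA libraries and 1 control library. The last was in control replicate 2 alone.

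Dnmt3b (ENSMUSG00000027478.17, chr2:153490861-153529650, + strand) had a single region, over its start and in exon 1, at chr2:153491117-153492516. The antisense gene Dnmt3bos also starts there, so that the signal cannot be assigned to 1 of them. The pileup was 43, 26 and 21 in control and 91, 69 and 73 in HADA. All HADA libraries were above all control libraries. The level over background was 16.5 ± 7.76 (SD, n = 3) in control and 35.2 ± 3.43 (SD, n = 3) in HADA, and the centred difference was 0.80 (SE 0.23, 95% interval 0.27 to 1.34, limma adjusted p = 0.0276). The call was lost when any 1 library other than control replicate 1 was left out, with a difference of 0.60 (limma adjusted p = 0.0716) without control replicate 3. It was also lost on ranks of the fold enrichment (limma adjusted p = 0.330). The start of Dnmt3b was low in both groups, above 13.4% of other start regions in control and 23.5% in HADA.

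Uhrf1 (ENSMUSG00000001228.16, chr17:56610275-56630489, + strand), whose product recognises hemimethylated CpG sites, had 2 regions. The start region, at chr17:56610352-56611656, had its summit 1073 bp downstream of the canonical start and 6 bp from the start of another transcript. The pileup was 101, 85 and 65 in control and 197, 157 and 169 in HADA. The groups did not overlap, and the difference of 0.45 missed the threshold (SE 0.17, 95% interval 0.06 to 0.84, limma adjusted p = 0.0642). It was 0.30 without control replicate 3 (limma adjusted p = 0.149) and 0.56 without control replicate 1 (limma adjusted p = 0.0435). The second region, at chr17:56616436-56617051 in intron 3, had no peak in any control library and a pileup of 29, 21 and 24 in HADA. These values were above the 8 to 9 that a call at the genome-wide background needed in HADA, a limit that is higher where the local background is higher.

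The TET genes, which encode the oxygen-dependent enzymes, did not move as 1 group. Of their 7 shared regions, 3 rose and 1 fell, with a median difference of 0.31 and a range from −0.99 to 0.81. The region that fell lay over 3000 bp from every start, where 43.8% of all shared regions fell. All 8 shared regions of the DNA methyltransferase genes had positive differences, from 0.42 to 1.04 with a median of 0.72, and 5 of them rose. Over all shared regions, 17.9% rose and 24.1% fell, and the difference between the TET and methyltransferase counts was not tested.

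**Figure D2:**
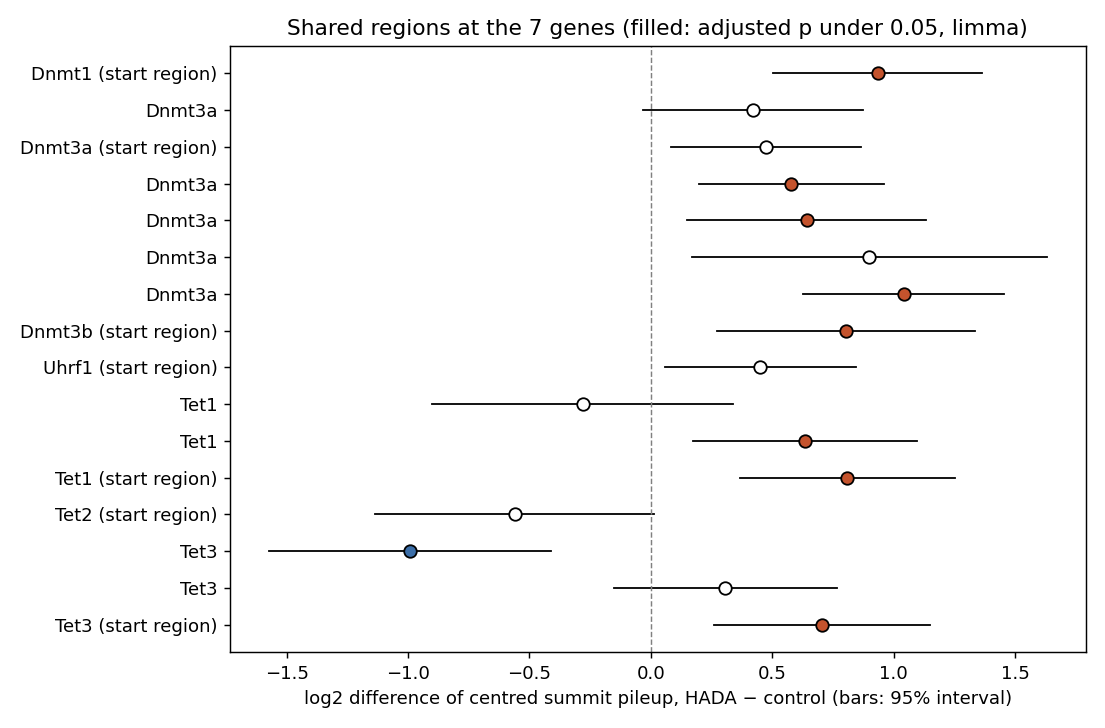
Centred log2 difference of summit pileup, HADA minus control, with its 95% interval (limma, n = 3 libraries in each group) for the 16 shared regions at the 7 genes, filled where the adjusted p was under 0.05. All 8 regions of Dnmt1, Dnmt3a and Dnmt3b lie to the right of 0, whereas regions of Tet1, Tet2 and Tet3 lie on both sides, from −0.99 to 0.81.

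Tet1 (ENSMUSG00000047146.18, chr10:62640349-62744775, − strand) had no region at the start of its canonical transcript, at position 62715793. Its open start region was at chr10:62701014-62701834, within intron 1 of the canonical transcript and 117 bp from the start of another transcript, where the sequence with 12 CpG sites is printed above. The pileup was 24, 22 and 16 in control and 58, 45 and 64 in HADA. Each HADA value was higher than each control value. The difference was 0.81 (SE 0.19, 95% interval 0.37 to 1.25, limma adjusted p = 0.0159). It was the only region of the 7 genes to pass on ranks of the deposited fold enrichment as well (limma adjusted p = 0.0483), and it lost the call without HADA replicate 2 or HADA replicate 3.

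A second Tet1 region, at chr10:62721698-62723172 and upstream of the canonical transcript, had a difference of 0.64 (SE 0.20, limma adjusted p = 0.0366). This call was lost when any 1 library other than control replicate 2 was left out, with adjusted p up to 0.124, and on ranks (limma adjusted p = 0.134). Its pileup was 18, 20 and 17 in control and 41, 38 and 54 in HADA. Another, farther upstream at chr10:62733595-62735416, had overlapping groups, with pileups of 14, 22 and 10 in control and 20, 15 and 21 in HADA. Its difference was −0.28 (95% interval −0.90 to 0.34, limma adjusted p = 0.422), and it was 0.10 for the level over background. The region at chr10:62694679-62695309 in intron 2 had a peak in HADA only, with a pileup of 15, 14 and 14. The other Tet1 regions, at chr10:62682527-62683856 and chr10:62687394-62687842, were found in 3 and 2 libraries spread over both groups, with pileups of 7 to 21.

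Tet2 (ENSMUSG00000040943.14, chr3:133169436-133250900, − strand) had the only start region of the 7 genes with a negative difference on the centred scale. The region, at chr3:133249266-133251214, had its summit in exon 1, 445 bp downstream of the canonical start, and a start of the predicted gene Gm42567 lies within 3000 bp. The pileup was 158, 144 and 234 in control and 204, 166 and 180 in HADA. The highest value was in control replicate 3, and the groups overlapped in raw pileup and over background, at 97.2 ± 29.1 (SD, n = 3) in control and 83.2 ± 4.01 (SD, n = 3) in HADA. On the centred scale every HADA library was below every control library, and the difference was −0.56 (SE 0.25, 95% interval −1.13 to 0.01), which missed the threshold (limma adjusted p = 0.102). Without control replicate 3 it was −0.33 (limma adjusted p = 0.0992), and without control replicate 2 it was −0.71 (limma adjusted p = 0.0667). The difference was −0.18 for the level over background and changed sign on ranks of the fold enrichment, at 0.24 (limma adjusted p = 0.334). The mean centred level at the Tet2 start was above 77.5% of other start regions in control and 59.0% in HADA. A weak region in intron 1, at chr3:133231199-133232439, had pileups of 12 to 16 in 5 libraries and no peak in control replicate 3.

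Tet3 (ENSMUSG00000034832.16, chr6:83339355-83436066, − strand) had the most regions, 11, of which 3 were shared. At its start region, chr6:83432401-83434514, the summit lay 365 bp upstream of the canonical start in the CpG-dense sequence printed above. The predicted gene Gm67132 also has a start there. The pileup was 131, 88 and 79 in control and 257, 222 and 254 in HADA, and the groups were apart. The level over background was 54.5 ± 19.97 (SD, n = 3) in control and 111 ± 1.03 (SD, n = 3) in HADA. The centred difference was 0.71 (SE 0.19, 95% interval 0.26 to 1.15, limma adjusted p = 0.0237). The call was lost without control replicate 3 (0.57, limma adjusted p = 0.0526) or any 1 HADA library, with adjusted p up to 0.0795, and on ranks (limma adjusted p = 0.281).

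The region in intron 5 of Tet3, at chr6:83358526-83359155, moved the other way. Its pileup was 24, 27 and 25 in control and 15, 21 and 24 in HADA. The backgrounds of the libraries were higher in HADA on average and overlapped between the groups. The centred difference was −0.99 (SE 0.25, 95% interval −1.57 to −0.41, limma adjusted p = 0.0191). For the level over background, it was −0.61 and missed the threshold (limma adjusted p = 0.0766). The call was also lost without HADA replicate 1 (limma adjusted p = 0.0534) or HADA replicate 2 (limma adjusted p = 0.0543) and on ranks (limma adjusted p = 0.150). The region at chr6:83417948-83419069, 27 bp from the start of another transcript, had pileups of 47, 35 and 28 in control and 73, 57 and 77 in HADA. Its difference of 0.31 missed the threshold (SE 0.20, limma adjusted p = 0.238) and was 0.15 without control replicate 3.

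The 8 Tet3 regions that were not shared all had a peak in more HADA than control libraries. Of all 38906 regions that were not shared, 22311 had a peak in more HADA libraries and 14246 in more control libraries. The region at chr6:83413414-83413965 in intron 3, with the CTCTC repeat, had a peak in HADA only, at pileups of 34, 36 and 30. Another in intron 3, at chr6:83388527-83389123, had pileups of 50, 52 and 41 in HADA and a peak in control replicate 2 alone, at 23. The neighbouring region at chr6:83389876-83390377 had 35, 50 and 54 in HADA and a peak in control replicate 3 alone, at 24. The remaining 5 had pileups of 8 to 57. They lay at chr6:83369642-83369956, chr6:83392973-83393656, chr6:83398583-83399037, chr6:83404789-83406039 and chr6:83425694-83426567. Peaks within Tet3 numbered 6, 6 and 4 in control and 10, 9 and 11 in HADA (5.33 ± 1.15 against 10.0 ± 1.00, SD, n = 3). The two-sided exact permutation test gave p = 0.1, the smallest that 3 against 3 libraries allow.

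Over the 7 genes, peaks numbered 24, 24 and 17 in control and 29, 28 and 31 in HADA (21.7 ± 4.04 against 29.3 ± 1.53, SD, n = 3, two-sided exact permutation p = 0.1). The TET genes made up 5.67 of the gap of 7.67 peaks, with 13, 12 and 8 peaks in control and 16, 16 and 18 in HADA. Tet3 alone made up 4.67 of it, and the peak counts of Tet1 and of Tet2 overlapped between the groups. The DNA methyltransferase genes had 10, 11 and 8 in control and 11, 10 and 11 in HADA, which overlap. HADA libraries had more peaks in general, and when the same number of strongest peaks was taken from each library the gap over the 7 genes fell from 7.67 to 4.33 peaks.

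The order of the start regions differed between the groups, on the level over background. In control, Tet2 (97.2) and Dnmt1 (78.3) led, and Tet2 was above Dnmt1 in 1 of 3 libraries. They were followed by Tet3 (54.5), Uhrf1 (45.6 ± 12.7) and Dnmt3a (40.8 ± 11.4), each overlapping its neighbour over libraries. Within each of the 3 control libraries, Dnmt1 was above Tet3, Tet3 above Uhrf1 and Uhrf1 above Dnmt3a. Dnmt3b (16.5) lay apart from Dnmt3a, and Tet1 was lowest at 11.2 ± 2.77. In HADA, Dnmt1 (189) lay apart at the top, then Tet3 (111) apart from Tet2 (83.2). Tet2, Uhrf1 (79.1 ± 4.94) and Dnmt3a (72.2 ± 7.37) overlapped, and Dnmt3b (35.2) and Tet1 (25.2 ± 2.79) each lay apart from the neighbour above.

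**Figure D3:**
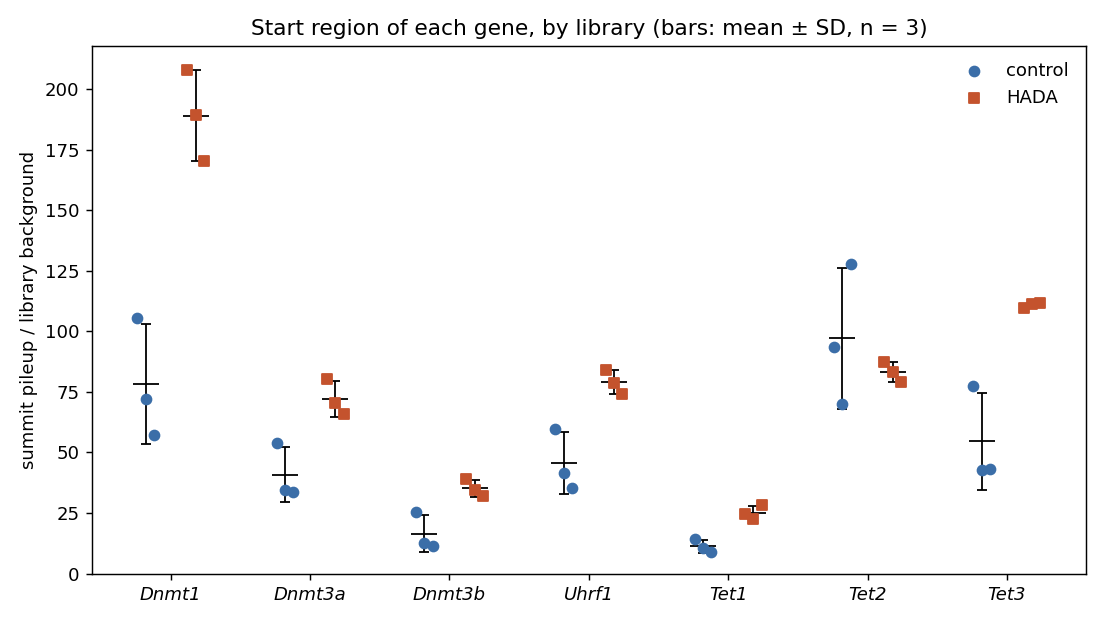
Level of the start region of each gene as summit pileup over the background of its library (linear axis), with 1 point for each of 3 control and 3 HADA libraries and bars at the mean ± SD. The groups are apart for Dnmt1, Dnmt3a, Dnmt3b, Uhrf1, Tet1 and Tet3, and overlap for Tet2.

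Ratios of start regions within a library need no scaling between libraries, and they were used to set the methyltransferase genes against the TET genes. The ratio of Dnmt1 to Tet2 pileup was 1.13, 1.03 and 0.449 in control and 2.38, 2.27 and 2.15 in HADA. That of Dnmt3a to Tet2 was 0.576, 0.493 and 0.265 in control and 0.922, 0.843 and 0.833 in HADA. Dnmt3b to Tet2 was 0.272, 0.181 and 0.0897 in control and 0.446, 0.416 and 0.406 in HADA. All these ratios with Tet2 as denominator were higher in every HADA library than in any control library. Control replicate 3 had the lowest of each, so that the gap to the other control libraries is smaller.

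With Tet1 or Tet3 as the denominator, the ratios of the methyltransferase genes overlapped between the groups. Dnmt1 to Tet3, for example, was 1.36, 1.68 and 1.33 in control and 1.89, 1.70 and 1.52 in HADA. Dnmt3a to Tet1 was 3.79, 3.23 and 3.88 in control and 3.24, 3.11 and 2.34 in HADA. Of the 9 pairs of a methyltransferase with a TET gene, 3 were higher in HADA without overlap, 6 overlapped and 0 were lower. The 3 were those with Tet2. Uhrf1 was also higher relative to Tet2, at 0.639, 0.590 and 0.278 in control and 0.966, 0.946 and 0.939 in HADA, whereas it was lower relative to Tet1 and to Tet3.

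The mean centred log2 level of the TET start regions minus that of the methyltransferase start regions was −0.16, 0.01 and 0.37 in control and −0.48, −0.38 and −0.18 in HADA. The difference between the group means was −0.42, and −0.27 without control replicate 3. Both parts were higher in HADA, the TET mean going from 0.38 to 0.70 and the methyltransferase mean from 0.31 to 1.05. On ranks of the deposited fold enrichment, the difference was −0.020. The gap rests on Tet2, whose own difference of −0.56 missed the threshold. The start differences of Tet1 (0.81) and Tet3 (0.71) lay around the 0.74 by which the methyltransferase mean rose.

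**Figure D4:**
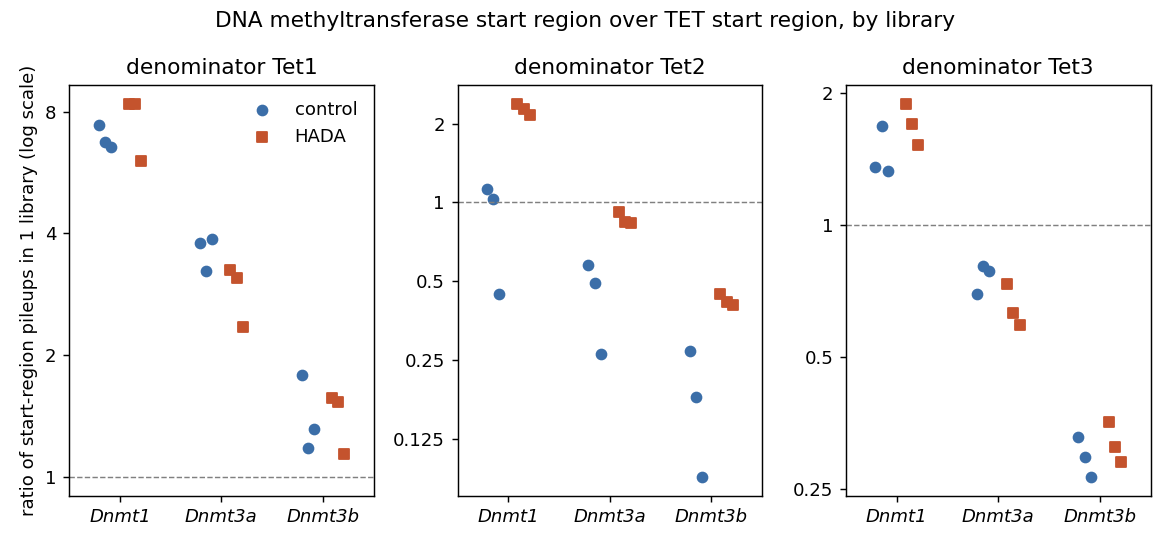
Ratio of the start-region pileup of Dnmt1, Dnmt3a or Dnmt3b to that of a TET gene (panels) in each of 3 control and 3 HADA libraries, on a log axis with a dashed line at 1. The groups separate in the Tet2 panel, where Dnmt1 goes from 0.449 to 1.13 in control to 2.15 to 2.38 in HADA, and overlap in the Tet1 and Tet3 panels.

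Levels at markers of some blood cell types also differed between the groups. The counts of marker regions here and in the next paragraph stand beside 17.9% risen and 24.1% fallen of all shared regions. The summed level over background at 10 B cell marker genes was 599, 349 and 52.5 in control and 1640 to 1712 in HADA, and 7 of 7 shared regions rose, with a median of 1.97. The peaks summed covered 3.58 to 15.6 kb in control and 31.8 to 34.4 kb in HADA, with a mean level of up to 23.0 and of 36.2 to 41.8. In control replicate 3, 5 of these 10 genes had a peak. At 11 T cell marker genes control sums of 470 to 696 stood beside HADA sums of 1011 to 1039, with 4 of 16 shared regions higher. At 11 neutrophil marker genes it was 546, 346 and 904 in control and 326, 247 and 174 in HADA, with 7 of 8 shared regions lower and a median of −1.65, and with no peak at Camp and Ngp. Those peaks covered 10.0 to 15.8 kb in control and 7.32 to 11.5 kb in HADA, with a mean level of 20.4 to 41.1 and 14.5 to 17.2. Control replicate 3 thus had the highest neutrophil level and the lowest B cell level. It also had the highest Tet2 pileup and the lowest raw pileup at the other 6 start regions. Over background, the Tet3 start was lowest in control replicate 2 instead (42.8, against 43.2 in control replicate 3).

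Sums over the other lists were 533 to 751 in control and 598 to 667 in HADA for 9 monocyte genes, where 7 of 10 shared regions fell. For 7 NK cell genes they were 11.5 to 47.4 and 50.4 to 75.6, with no peak at Klrk1 and 1 shared region, which had a difference of 0.32. For 9 erythroid and platelet genes they were 16.4 to 31.4 and 61.6 to 76.1, with 1 of 2 shared regions higher and no peak at Hba-a1, Alas2, Gp9 or Ppbp. The part of cell composition in the differences at the 7 genes was not tested.

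**Figure D5:**
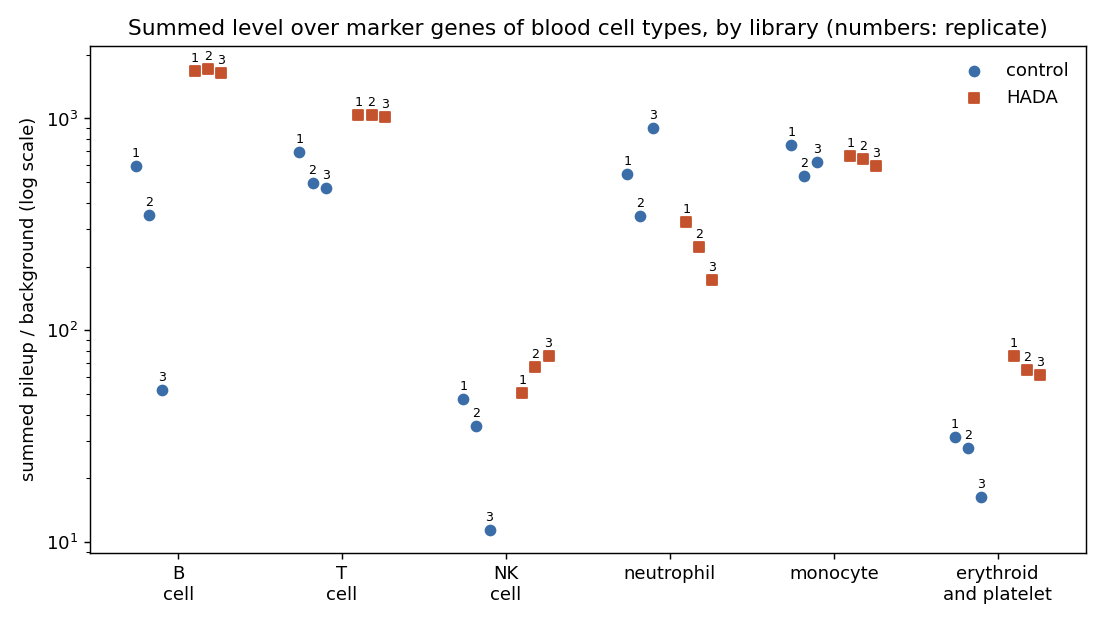
Summed level over background (log axis) at marker genes of 6 blood cell types in each library, with the replicate number above each point. B cell sums are 52.5 to 599 in control and 1640 to 1712 in HADA, neutrophil sums are 346 to 904 and 174 to 326, and monocyte sums overlap.

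The other genes of the pathway showed a smaller median difference. Of 34 listed genes, 33 had a region (Cxxc4 had none), and of their 42 shared regions 9 rose and 1 fell, with a median difference of 0.17. At the start regions of 30 of these genes, 7 rose and 0 fell. The counts over 42 regions stand beside 17.9% risen and 24.1% fallen of all shared regions, and those over start regions beside 20.1% and 12.2% of all shared regions near a start. Of the 75 regions of these genes, 3 had a peak in HADA only and 1 in control only, where 7.01% and 1.88% of all consensus regions did. Values of these genes on ranks of the fold enrichment, and without single libraries where the call was lost, are given beside them.

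Among cofactors and partners of the methyltransferases, 1 of 9 shared regions rose and 1 fell. The start of Hells, which encodes a chromatin remodeller needed for methylation of repeats, rose by 0.86 (limma adjusted p = 0.0117), from pileups of 23, 25 and 19 in control to 79, 51 and 60 in HADA. The call was lost on ranks (limma adjusted p = 0.137). The region that fell was at the locus of Dppa3, 6357 bp from a start, with pileups of 156, 93 and 398 in control and 109, 46 and 46 in HADA. Its difference was −2.17 (limma adjusted p = 0.0196), and it was named after its values were seen. Control replicate 3 was far above the rest, and without it the difference was −1.58 (limma adjusted p = 0.0194). The groups overlapped over background, and the call was lost on ranks (limma adjusted p = 0.290) and without HADA replicate 2 or HADA replicate 3. Dnmt3l, a cofactor gene of the de novo enzymes, had the only region of the list found in control alone, at pileups of 21, 16 and 20. Usp7, whose product removes ubiquitin from DNMT1 and UHRF1, had a region found in HADA alone, at 26, 19 and 19.

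Among genes of methyl-CpG binding proteins, 2 of 10 shared regions rose, and both were starts of zinc-finger genes. Zbtb38 rose by 1.06 (limma adjusted p = 0.0091), from pileups of 78, 66 and 50 to 221, 193 and 201. Zbtb4 rose by 1.25 (limma adjusted p = 0.0109), from 84, 55 and 37 to 226, 190 and 198. In both, every HADA library was above every control library. Zbtb38 kept its call on ranks (limma adjusted p = 0.0326) and Zbtb4 did not (limma adjusted p = 0.0611).

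Base excision genes, whose products remove oxidised or deaminated bases, had 2 of 9 shared regions that rose. The start region of Smug1, a uracil and hydroxymethyluracil glycosylase gene, rose by 1.24 (limma adjusted p = 0.0131), from 41, 34 and 17 to 114, 95 and 106. It was 0.88 without control replicate 3, and the call was lost without HADA replicate 2 (limma adjusted p = 0.0522) and on ranks (limma adjusted p = 0.101). The other was the start of Neil1, with a difference of 0.67 (limma adjusted p = 0.0238) that was −0.12 on ranks (limma adjusted p = 0.601). Its call was also lost without control replicate 3 or any 1 HADA library. A second Smug1 region was found in HADA alone, at pileups of 37, 25 and 34.

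Genes of TET partners and of cosubstrate supply had 3 of 9 shared regions that rose. The 2 with the smallest adjusted p were at Cxxc5, a CXXC zinc-finger gene whose product binds TET2. Its start region rose by 1.65 (limma adjusted p = 0.0129), from 42, 24 and 12 to 129, 100 and 106. It was 1.20 without control replicate 3, and the call was lost without HADA replicate 2 (limma adjusted p = 0.0506) and on ranks (limma adjusted p = 0.254). A region in its first intron had pileups of 86, 59 and 32 in control and 262, 251 and 250 in HADA (limma adjusted p = 0.0100). Its difference was 1.60, and 1.23 without control replicate 3, and the call was lost on ranks (limma adjusted p = 0.330). The other region that rose was at Idh2, with a difference of 0.76 (limma adjusted p = 0.0287) that was 0.48 without control replicate 3 (limma adjusted p = 0.0351). It kept its call on ranks (limma adjusted p = 0.0299) and lost it when any 1 HADA library was left out. Its summit lay 4154 bp from the nearest Idh2 start and also within the gene Zfp710, so that the signal cannot be assigned to 1 of them. The start region of Idh2 missed the threshold, with a difference of 0.53 (limma adjusted p = 0.0911). A region of Cxxc5 was found in HADA alone, at pileups of 39, 37 and 39. Of methyl donor genes, 1 of 5 shared regions rose, the start of Ahcy (0.67, limma adjusted p = 0.0197). Its call was lost when any 1 HADA library was left out and on ranks (limma adjusted p = 0.0852). Ahcy, Idh2 and Neil1 were named after their values were seen.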

How the data were processed

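Peak lists of 6 ATAC-seq libraries, 3 control and 3 HADA as labelled, were analysed. Per the labels and the study's methods, reads had been trimmed by the authors (Trimmomatic), aligned to GRCm39 (Bowtie2) and cleared of duplicates (Picard), and MACS2 was run on each library by itself. Versions, options and any shift of reads for Tn5 are not given in the sources used here, so a summit can be a few bases off the insertion site. The deposited fold enrichment is the ratio of the summit to its local background. The deposited −log10 p-value and −log10 q-value and the deposited score are the caller's own and rank a peak against others of the same library.

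The pileup and local background of each peak were solved from the deposited fold enrichment and −log10 p-value, taking MACS2's Poisson test with a pseudocount of 1. All peaks were solved in each library (100%), and the solver and the limma step were tested on simulated data. The lists hold no read totals, so depth is known only through the background. Peaks on the main chromosomes that shared 1 bp were merged. Genes and starts came from the GENCODE annotation of GRCm39. Group differences were tested with limma 3.58.1 in R 4.3.3, over regions with a peak in all 6 libraries, at an adjusted p of 0.05. The start region of a gene was the shared region within 3000 bp of a start with the highest mean log2 pileup. Single values were compared with two-sided exact permutation tests. Alternatives were ranks of the fold enrichment, no centring, a replicate block, −log10 q of at least 5, the same number of peaks per library, windows of 150 bp on each side of summits, pileups scaled to the lowest background, a distance of 1000 bp, and leaving out each library.

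All regions of the 7 genes were named, with the pathway genes of smallest adjusted p (up to 6 regions), up to 4 with a peak in all libraries of 1 group alone, and for each start region the 2 most alike. Those for Tet3 are not reported here. The members and lists were chosen with earlier results of these data known. Same-numbered libraries correlated in their deviations at −0.08, 0.08 and −0.38, so the replicate numbers were not taken as pairs.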

Additional observations from a re-analysis of the deposited data

How the results depend on the processing

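Of 187 values of the 16 shared regions of the 7 genes under the alternatives, 132 kept direction and side of the threshold, 39 lost the call, 11 gained it and 5 changed sign. On ranks of the fold enrichment, 1574 of all shared regions rose and 1146 fell, 1 rose and 0 fell at the 7 genes (region Tet1 62701014), and the TET minus methyltransferase difference was −0.020. Of all shared regions, 4843 were then higher and 3696 lower at an unadjusted p under 0.05. Without centring, the level over background of all shared regions was higher in HADA by a median of 0.40 (log2), 7432 rose and 4396 fell, so that 62.8% of calls were higher against 42.7% with centring, and at the 7 genes 13 rose and 0 fell. With the same number of peaks per library, HADA-only regions numbered 1 and the gap in peaks was 4.33. In that setting 14 of the 16 regions were tested, and 0 of them lost the call. The Tet3 region that fell was not among them, so that 0 regions of the 7 genes fell. With −log10 q of at least 5, HADA-only regions numbered 2. The replicate block gave 2991 higher and 5660 lower over all regions, and 6 higher and 1 lower at the 7 genes, against 8 and 1. The 1000 bp distance left 33 regions with the same counts of calls.

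Leaving out each library in turn, regions that rose numbered 737 to 4813 over all regions and 1 to 10 at the 7 genes, and those that fell 2021 to 5917 and 0 to 1. The count at the 7 genes was 1 without HADA replicate 2, 2 without HADA replicate 3, 3 without HADA replicate 1 and 4 without control replicate 3. The TET minus methyltransferase difference ran from −0.54 to −0.27, HADA-only regions from 4 to 6 and the gap in peaks from 5.33 to 8.83. With 2 libraries in a group fewer samples set the spread. The differences that changed sign were at Tet1 62733595 (0.20 on ranks, 0.10 over background, and −0.53 to 0.0053 when a library was left out, above 0 without control replicate 2), the Tet2 start (0.24 on ranks) and Tet3 83417948 (−0.037 on ranks), and among pathway genes at the Neil1 start (−0.118 on ranks). The cause was not tested.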

Other observations

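For the start regions of 6 of the 7 genes, the start regions of other protein-coding genes with the most similar pattern over the 6 libraries were found by the mean absolute difference of centred log2 levels, after each region was centred on its own mean. They were Foxo1 (0.031) and Zbtb14 (0.033) for Dnmt1, Ccne1 (0.020) and Angptl6 (0.025) for Dnmt3a, and Vcpkmt (0.046) and Sdf2l1 (0.047) for Dnmt3b. For Uhrf1 they were Lztr1 (0.021) and Farp2 (0.024). For the TET genes given here they were Camsap2 (0.050) and Zfp395 (0.058) for Tet1, and Elf4 (0.032) and Samd9l (0.037) for Tet2. Such patterns were common, since 1621 to 4411 of about 11880 start regions lay within 0.2 of a member, and the 6 points share their libraries.

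The Tet2 start difference was above that of 10.9% of other start regions of protein-coding genes, whereas those of Dnmt3b, Tet1 and Tet3 were above 90.6%, 90.9% and 87.2%, and those of Dnmt3a and Uhrf1 above 75.7% and 74.1%. The density of regions also differed between the genes, from 0.25 for each 10 kb of gene body at Tet2 to 1.14 at Tet3.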
